A study of Homo sapiens with 8 samples.

Results

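Growth differentiation factor 15 (GDF15) and a set of integrated stress response genes were followed in MIA PaCa-2, a long-established line of human pancreatic ductal adenocarcinoma, whose cells were sorted by permeability to lactic acid. The set was defined by symbol as GDF15, ATF4, DDIT3, ASNS, CHAC1, TRIB3, SESN2, PSAT1, PHGDH and PPP1R15A, and a gene entered only where the authors' deposited table listed it. Of these 10 genes, 5 were among the 3666 listed genes: GDF15, ATF4, PPP1R15A, SESN2 and PSAT1. The other 5 (DDIT3, ASNS, CHAC1, TRIB3 and PHGDH) were not listed and were not analysed here. The table holds genes that the authors called different between the sorted fractions, with an adjusted p-value of at most 0.05, so all of the listed members had to differ between the fractions. Their differences between fractions are therefore given as a description, without a test. The member nearest to that limit was PSAT1, with an adjusted p-value of 0.013 in the authors' deposited table.

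The cells were labelled wild type and untreated, and their cell type was labelled adenoma. All libraries came from this 1 line. Both groups were grown in RPMI with 10% FBS, at 5% CO2 and 44 mM bicarbonate, and both were briefly exposed to a lactate-containing medium and washed before sorting. The fraction of low permeability (PHLac-low) and the fraction of high permeability (PHLac-high) were collected in 4 repeats, which gave 8 messenger RNA libraries paired by repeat. Reads in the listed genes numbered 8979276 to 23176205 per library, and the PHLac-low library of repeat 3 was the deepest. The labels do not say whether the repeats came from separate cultures, so a spread between repeats may be technical. Of 8 markers of epithelial or mesenchymal identity (KRT8, KRT18, KRT19, KRT7, EPCAM, CDH1, MUC1 and VIM), KRT19 was listed, with mean normalised counts of 17367 (PHLac-low) and 20360 (PHLac-high). The other markers were not analysed here, so the labelled cell type could not be checked further.

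The integrated stress response starts with kinases that phosphorylate the translation initiation factor eIF2 when a cell lacks amino acids, misfolds proteins in the endoplasmic reticulum or has damaged mitochondria. Translation in general then slows, while the transcription factor ATF4 is made from its own messenger RNA more efficiently. ATF4 raises transcription of genes for amino acid supply and for feedback on the response. GDF15 is a secreted member of the TGF-beta superfamily that acts through the receptor GFRAL with its co-receptor RET in the hindbrain, and it is a known target of ATF4, DDIT3 and p53 in stressed cells.

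The promoter windows of GDF15, which was lower in PHLac-high, and of ATF4 and PPP1R15A, which were higher, are shown because these genes differed in opposite directions. Each window is the 250 bases before the annotated start, on the plus strand of GRCh38.p14 (RefSeq), at chr19:18385908-18386157 for GDF15, chr22:39520309-39520558 for ATF4 and chr19:48872171-48872420 for PPP1R15A. Capitals mark matches on either strand to TGATGNAA (an element bound by C/EBP and ATF factors), TGACGTCA (the cyclic AMP response element) or GGGCGG (the GC box).
GDF15: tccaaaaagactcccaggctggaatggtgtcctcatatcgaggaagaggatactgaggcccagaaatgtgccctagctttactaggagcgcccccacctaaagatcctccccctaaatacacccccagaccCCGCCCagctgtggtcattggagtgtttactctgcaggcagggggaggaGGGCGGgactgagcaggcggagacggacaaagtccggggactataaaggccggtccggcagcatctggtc
ATF4: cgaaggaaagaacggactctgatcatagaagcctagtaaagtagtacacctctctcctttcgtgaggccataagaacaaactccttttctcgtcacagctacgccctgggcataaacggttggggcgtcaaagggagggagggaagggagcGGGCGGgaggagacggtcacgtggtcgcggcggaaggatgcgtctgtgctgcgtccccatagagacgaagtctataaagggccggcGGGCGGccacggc
PPP1R15A: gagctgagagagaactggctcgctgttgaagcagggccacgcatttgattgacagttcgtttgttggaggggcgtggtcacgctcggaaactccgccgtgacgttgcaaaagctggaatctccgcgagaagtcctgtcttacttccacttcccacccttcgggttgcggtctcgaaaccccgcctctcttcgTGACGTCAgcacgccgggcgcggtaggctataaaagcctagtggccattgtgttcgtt
The matches in these windows did not overlap each other. The GDF15 window held 2 GC boxes, whose first bases lay 119 and 70 bases before the start, and the ATF4 window held 2, at 99 and 13 bases. The PPP1R15A window held 1 cyclic AMP response element, 58 bases before the start. Among all 35116 RefSeq windows of this length, 42.6% held GGGCGG, 1.65% held TGACGTCA and 3.14% held TGATGNAA. TGATGNAA was in none of the windows of the 5 listed members and in those of 2 of the 5 members that were not listed, ASNS and CHAC1 (first window of each gene). Only exact matches within the 250 bases before the start were searched for. Elements elsewhere in these genes, or variants of the motif, were not examined.

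GDF15 (Entrez 9518, chr19:18386158-18389176) was lower in PHLac-high in every repeat. Its normalised count, a read count divided by the authors' size factor for that library, was 10574, 12427, 15920 and 5019 for PHLac-low in repeats 1 to 4. For PHLac-high it was 3694, 5085, 6246 and 1352. The groups overlapped, since the PHLac-low library of repeat 4 lay below the PHLac-high libraries of repeats 2 and 3, while within each repeat the PHLac-high library was the lower. The PHLac-low mean was 10985 ± 4553 and the PHLac-high mean 4094 ± 2105 (SD, n = 4). On the log2(normalised count + 1) scale the difference, PHLac-high minus PHLac-low, was -1.51 ± 0.095 (SE, limma with the repeat as a block), a 2.85-fold lower level. GDF15 stood 56th from the bottom among the differences of all 3666 listed genes. In these bulk libraries, fewer GDF15-expressing cells and less GDF15 RNA per cell cannot be told apart.

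**Figure D1:**
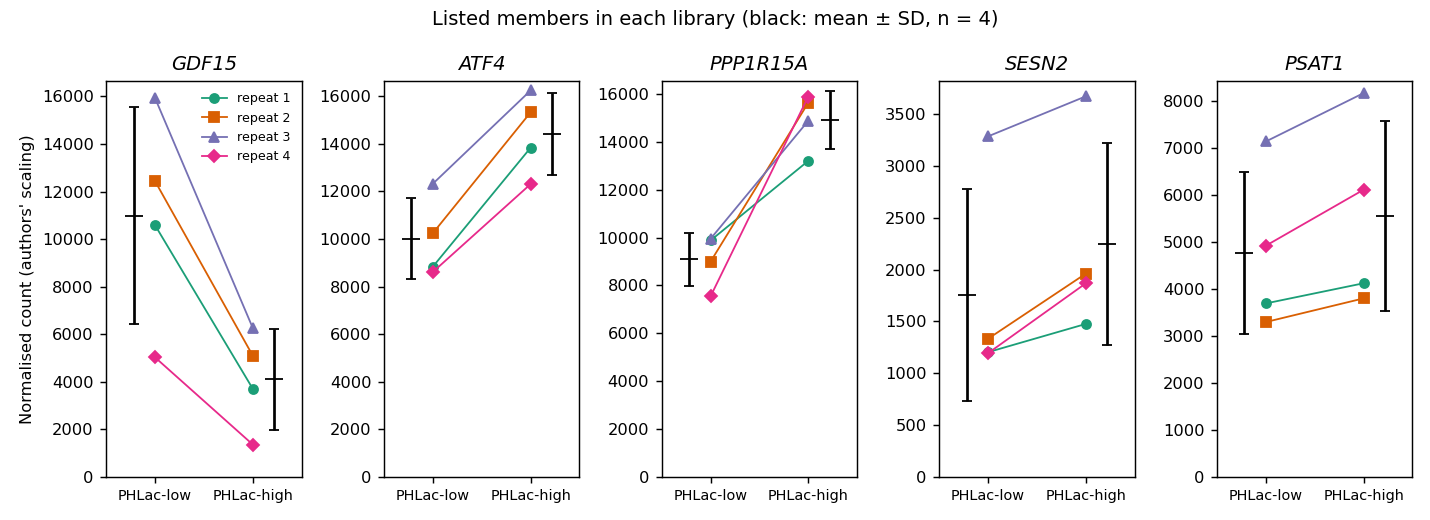
Normalised count (vertical axes, authors' scaling, each starting at 0) of GDF15, ATF4, PPP1R15A, SESN2 and PSAT1 in the PHLac-low and PHLac-high libraries, with lines joining the 2 libraries of a repeat and black bars giving the mean ± SD (n = 4). GDF15 was lower and the other 4 genes were higher in PHLac-high in every repeat, and only PPP1R15A had groups that did not overlap.

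The other 4 listed members were higher in PHLac-high in all 4 repeats, as were 56.2% of all listed genes, and GDF15 was lower in all 4, as were 39.8% of listed genes. Because the table was selected on this difference, nothing is read from these counts.

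ATF4 (Entrez 468, chr22:39520559-39522686), the transcription factor at the centre of the response, had normalised counts of 8833, 10242, 12320 and 8610 for PHLac-low in repeats 1 to 4. For PHLac-high it had 13833, 15322, 16241 and 12305. The groups met at their edges, with the PHLac-low library of repeat 3 just above the PHLac-high library of repeat 4. The means were 10001 ± 1706 and 14425 ± 1727 (SD, n = 4), and the log2 difference was 0.54 ± 0.057 (SE, limma), a 1.45-fold higher level in PHLac-high. GENCODE release 29 names 4 pseudogenes of ATF4, so the division of reads between ATF4 and these copies is uncertain.

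PPP1R15A (Entrez 23645, chr19:48872421-48876058) encodes GADD34, the stress-induced subunit that directs a phosphatase to eIF2 and so ends the response. Its normalised counts were 9878, 8991, 9947 and 7539 in PHLac-low and 13205, 15634, 14881 and 15894 in PHLac-high. All PHLac-high libraries lay above all PHLac-low libraries, as was the case for 23.3% of listed genes, while GDF15 was not among the 13.4% that were lower without overlap. The means were 9089 ± 1121 and 14904 ± 1211 (SD, n = 4), and the log2 difference of 0.72 ± 0.10 (SE, limma) was a 1.65-fold higher level.

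SESN2 (Entrez 83667, chr1:28259518-28282491) encodes sestrin 2, a leucine sensor that restrains the growth-promoting kinase complex mTORC1. Its normalised counts were 1204, 1334, 3288 and 1194 in PHLac-low and 1477, 1963, 3675 and 1869 in PHLac-high. Repeat 3 stood above the other repeats in both fractions, and the groups overlapped. The means were 1755 ± 1024 and 2246 ± 976 (SD, n = 4), and the log2 difference was 0.41 ± 0.089 (SE, limma), a 1.33-fold higher level.

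PSAT1 (Entrez 29968, chr9:78297125-78330093) encodes an enzyme of serine synthesis. Its normalised counts were 3691, 3295, 7138 and 4920 in PHLac-low and 4120, 3799, 8169 and 6111 in PHLac-high, and here too repeat 3 was the highest in both fractions. The log2 difference of PSAT1 was 0.22 ± 0.054 (SE, limma) with the authors' size factors and -0.0067 after each library was scaled by its own upper quartile (over listed genes), so its direction rests on the scaling. That scaling moved the median log2 difference of all listed genes from 0.25 to 0.021. Under it GDF15, ATF4, PPP1R15A and SESN2 kept their directions, at -1.74, 0.31, 0.49 and 0.19. GENCODE release 29 names 4 pseudogenes of PSAT1, with the same limit as for ATF4.

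Levels of different genes were compared per kilobase of annotated exon (GENCODE release 29). The length used was the union of all annotated exons of a gene. It can differ from the length of the RNA that the cells made, so close places in the order may rest on it. In PHLac-low, GDF15 had 5264 normalised counts per kilobase, ATF4 3978, PPP1R15A 2938, PSAT1 2176 and SESN2 508. In PHLac-high the order changed, with ATF4 at 5738, PPP1R15A at 4818, PSAT1 at 2536, GDF15 at 1962 and SESN2 at 650 normalised counts per kilobase. These are group means. By library, GDF15 was the highest of the 5 per kilobase in PHLac-low repeats 1 to 3 and the third in repeat 4, and in PHLac-high it was the third in repeat 2 and the fourth in the other repeats. The neighbours in this order were not tested against each other. None of the 5 genes shares annotated exon bases with another gene in that release.

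The differences within repeats showed how even these changes were. The log2 ratio of PHLac-high to PHLac-low for GDF15 was -1.52, -1.29, -1.35 and -1.89 in repeats 1 to 4. The recovered reads behind these ratios were 1021 to 33196 per library, and the 95% counting interval (exact Clopper-Pearson, counting error only) ran from -1.99 to -1.80 in repeat 4 and from -1.34 to -1.24 in repeat 2. The spread of GDF15 between repeats 2 and 4 was therefore larger than counting error. For ATF4 the ratios were 0.65, 0.58, 0.40 and 0.52, and for PPP1R15A they were 0.42, 0.80, 0.58 and 1.08. In repeat 4, GDF15 had its most negative ratio and PPP1R15A and SESN2 (0.65) had their highest. In repeat 3, ATF4 and SESN2 (0.16) had their lowest ratios. PSAT1 ranged from 0.16 in repeat 1 to 0.31 in repeat 4. The PHLac-low library of repeat 4 had the lowest GDF15, ATF4, PPP1R15A and SESN2 of its group, though not the lowest PSAT1. The mean of the 2 libraries of a repeat is a different measure. By that mean 3 of the 5 members were lowest in repeat 4, as were 1503 of all 3666 listed genes. Without repeat 4 the log2 difference was -1.39 for GDF15 and 0.60 for PPP1R15A.

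**Figure D2:**
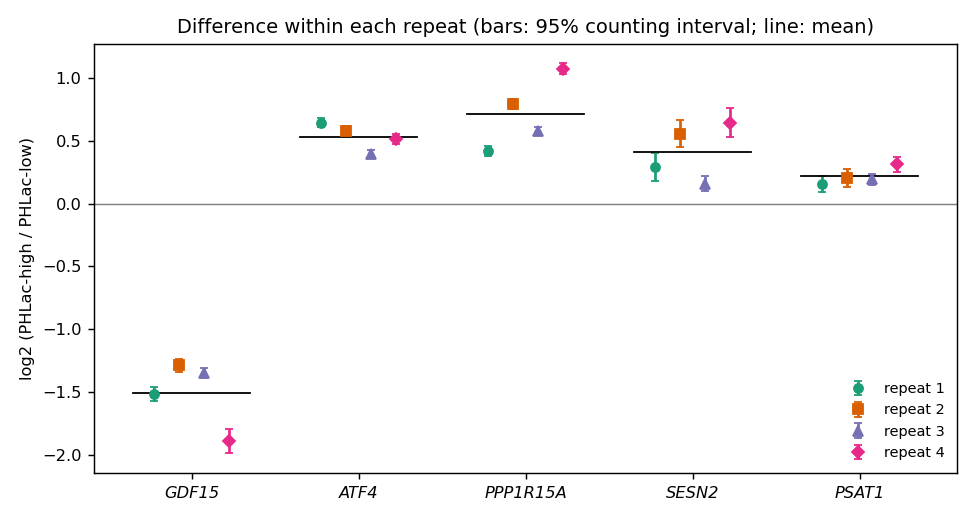
Log2 ratio of PHLac-high to PHLac-low within each repeat (vertical axis) for the 5 listed members, with bars for the 95% counting interval and a line for the mean over repeats. GDF15 lay between -1.89 and -1.29 and the other genes lay above 0 in every repeat.

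The ratio of GDF15 to another gene within a library does not depend on the scaling of that library. The log2 ratio of GDF15 to ATF4 normalised counts was 0.26, 0.28, 0.37 and -0.78 for PHLac-low in repeats 1 to 4. For PHLac-high it was -1.91, -1.59, -1.38 and -3.19. The groups did not overlap, and within repeats the ratio was lower in PHLac-high by a mean log2 of 2.05 (SD 0.30, n = 4), which is 4.13-fold. Against PPP1R15A the ratio was 4.69-fold lower, against SESN2 3.80-fold and against PSAT1 3.32-fold. The ratios did not overlap for ATF4, PPP1R15A and SESN2 and overlapped for PSAT1. For 30.5% of the other 3665 listed genes the ratio of GDF15 to the gene was likewise lower in PHLac-high without overlap, and since the table was selected on this difference nothing is read from the separation.

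Between the fractions, then, ATF4, PPP1R15A and SESN2 differed in the direction opposite to GDF15 with both scalings. PSAT1 did so with the authors' size factors only. This is a description, since the members were listed for a difference between fractions. Across the repeats, ATF4 had the same order as GDF15 in each fraction. In PHLac-low and again in PHLac-high, both GDF15 and ATF4 were highest in repeat 3, followed by repeats 2, 1 and 4. This order in both fractions was found for 3.68% of all listed genes. For ATF4 in PHLac-low its last places rest on close counts, 8833 in repeat 1 and 8610 in repeat 4. The mean of the 2 libraries of a repeat, centred on the gene, was 0.06, 0.41, 0.73 and -1.20 log2 units for GDF15 in repeats 1 to 4, and -0.11, 0.07, 0.25 and -0.21 for ATF4, a 3.83-fold range for GDF15 and a 1.37-fold range for ATF4. SESN2 (-0.46, -0.18, 0.93 and -0.29) and PSAT1 (-0.33, -0.47, 0.64 and 0.16) shared the peak in repeat 3, but their lowest mean was in repeat 1 for SESN2 and in repeat 2 for PSAT1. By these means PPP1R15A also had the order of repeats 3, 2, 1 and 4, within a 1.11-fold range. That order of the means was found for 10.4% of all listed genes. With 4 pairs in 2 separate groups, no correlation was tested.

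The differences between repeats had not been used to choose the members, and they were tested with limma's F test on the repeat terms (Benjamini-Hochberg over the 3666 genes). They passed for GDF15 (adjusted p = 0.000231), PSAT1 (adjusted p = 0.000203), SESN2 (adjusted p = 0.00047) and ATF4 (adjusted p = 0.00592) in limma, and not for PPP1R15A (limma adjusted p = 0.735). Of all listed genes 57.6% passed, so 4 of 5 members is near the background. Selection for a difference between fractions also favours genes with a small residual spread, which this test shares. Without repeat 3, SESN2 did not pass (limma adjusted p = 0.167), while GDF15, PSAT1 and ATF4 did.

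The genes most like GDF15 over the 8 libraries were found by the root mean square difference between gene-centred log2 values, among genes at or above the median mean level of 1335 normalised counts. In order they were VCAN (0.251), COL5A1 (0.381), TOX2 (0.465), LTBP4 (0.477), NES (0.488) and ADAMTSL4 (0.494). These values include the difference between fractions and so are a description. VCAN encodes versican, a matrix proteoglycan, and had normalised counts of 2394, 2587, 3451 and 1572 in PHLac-low and 1039, 941, 1806 and 361 in PHLac-high. COL5A1 encodes a collagen V chain, LTBP4 a latent TGF-beta binding protein, NES the intermediate filament nestin and TOX2 a high-mobility-group box factor. All 6 were lower in PHLac-high, with log2 differences from -1.43 ± 0.16 for VCAN to -0.60 ± 0.069 for LTBP4 (SE, limma), and all 6 were lowest in the PHLac-high library of repeat 4. The distances of the stress genes from GDF15 were 1.15 for SESN2, 1.19 for ATF4, 1.21 for PSAT1 and 1.32 for PPP1R15A. Since the 6 genes above were picked for the smallest distances, nothing is read from the gap between them and the stress genes. Among the other 3665 listed genes, SESN2 ranked 1751st, ATF4 1912th, PSAT1 2098th and PPP1R15A 2840th in nearness to GDF15. Among genes at or above the median level, their ranks were 621, 740, 872 and 1397 in the same order. The farthest gene there, HSPA6, ranked 1832nd.

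**Figure D3:**
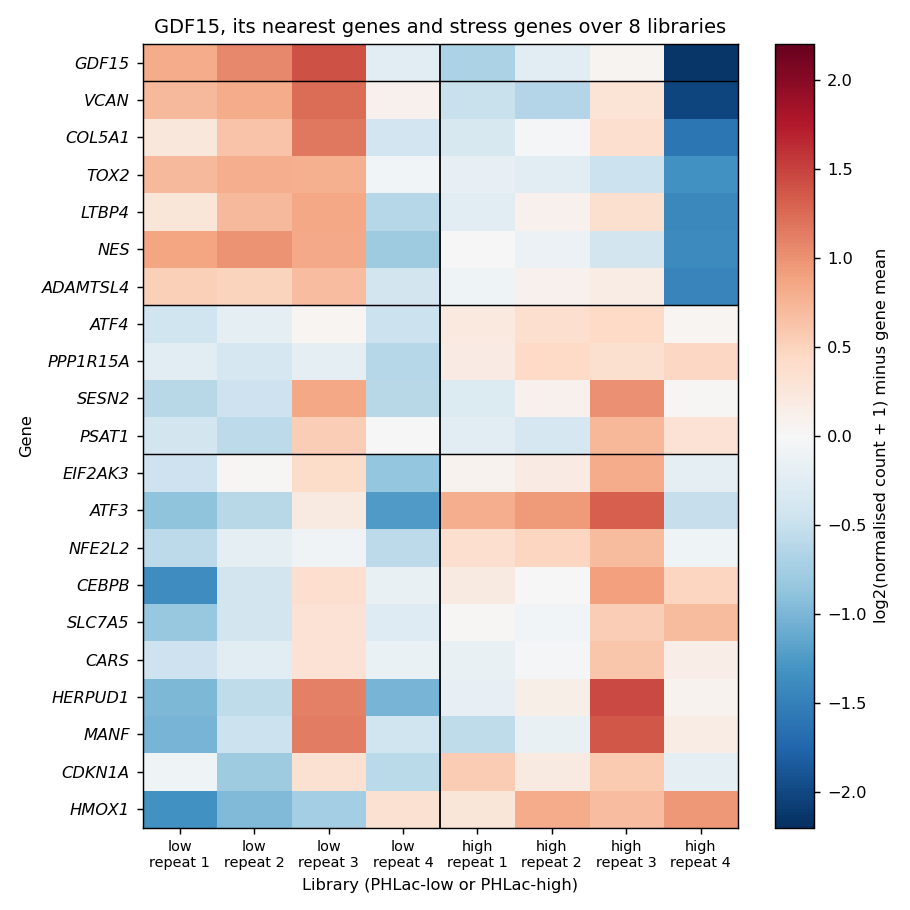
Colour gives log2(normalised count + 1) minus the gene's mean for GDF15, its 6 nearest genes, the other 4 listed members and further stress genes (rows) in the 8 libraries (columns, PHLac-low left and PHLac-high right). GDF15 and its nearest genes are higher on the left and lowest in PHLac-high repeat 4, while ATF4 and PPP1R15A are higher on the right.

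The wider stress response was described with 7 lists of 118 genes in all, of which 50 were listed. Of these 50, 47 were higher in PHLac-high and 3 lower, beside 58.8% higher and 41.2% lower among all listed genes, and 43 were higher in all 4 repeats. Their median log2 difference was 0.33, beside 0.25 for all listed genes. After upper-quartile scaling 42 of the 50 were higher, with a median of 0.10 beside 0.021. The 68 genes of these lists that were not listed were not analysed here, and the listed ones had to differ. The background for the counts of each list below is the same, 58.8% of all listed genes higher, or 54.1% after upper-quartile scaling.

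Among the sensors and regulators of eIF2, 5 of 18 genes were listed, and all 5 were higher in PHLac-high with both scalings (median log2 difference 0.39). EIF2AK3, which encodes the endoplasmic reticulum kinase PERK, differed by 0.44 ± 0.094 (SE, limma). PPP1R15B, the constitutive counterpart of PPP1R15A, differed by 0.52 ± 0.061. DNAJC3, an inhibitor of these kinases, differed by 0.39 ± 0.076. The eIF2 subunit genes EIF2S1 and EIF2S2 differed by 0.37 ± 0.052 and 0.26 ± 0.050.

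Of 19 bZIP transcription factors of stress responses, 11 were listed, 9 higher and 2 lower in PHLac-high (median log2 difference 0.35). ATF3, which is induced downstream of ATF4, had the largest difference of the list, 1.28 ± 0.14 (SE, limma), from a mean of 2681 to 6676 normalised counts. Its differences were 1.69, 1.56, 1.13 and 0.75 in repeats 1 to 4. CEBPB differed by 0.78 ± 0.17, with 1.55 in repeat 1 and 0.39 to 0.64 in the others. NFE2L2, which encodes the oxidative stress factor NRF2, differed by 0.72 ± 0.077. The 2 lower genes, NFIL3 (-0.32 ± 0.10) and CREB3L2 (-0.33 ± 0.081), were picked for mention after their values were seen. ATF3, NFE2L2, EIF2AK3 and the death receptor gene TNFRSF10B were the 4 of the 50 genes that had the repeat order of GDF15 in both fractions, and they too were singled out afterwards.

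Genes of amino acid supply were described in 4 lists. All 9 listed amino acid transporters of 14 were higher with both scalings (median log2 difference 0.33). SLC3A2 and SLC7A5, the heavy and light chains of the LAT1 transporter, differed by 0.65 ± 0.092 and 0.60 ± 0.12 (SE, limma), and the glutamine transporter SLC1A5 by 0.34 ± 0.058. SLC7A5 went from a mean of 10112 to 15112 normalised counts, with differences of 0.86, 0.35, 0.22 and 0.98 in repeats 1 to 4. The 9 listed genes of 21 for tRNA charging and export were all higher, from 0.18 to 0.38, and 5 of them remained higher after upper-quartile scaling. TARS, CARS and YARS, the synthetases for threonine, cysteine and tyrosine, differed by 0.38 ± 0.050, 0.27 ± 0.058 and 0.27 ± 0.069. Of 9 enzymes of serine, glycine and folate metabolism beyond the members, MTHFD2 alone was listed, at 0.28 ± 0.055. Among other amino acid enzymes, 4 of 13 were listed. SAT1, of polyamine breakdown, differed by 0.25 ± 0.080 and GOT1, an aspartate aminotransferase, by 0.24 ± 0.059. CTH, the cystathionine gamma-lyase that makes cysteine and is itself an ATF4 target, was lower in all 4 repeats, at -0.52 ± 0.11.

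Effector and feedback genes were higher in all 11 listed cases of 24 with both scalings (median log2 difference 0.45). NDRG1, a stress- and hypoxia-induced gene, differed by 0.89 ± 0.092 (SE, limma). BCL2L11, which encodes the pro-apoptotic protein BIM, differed by 0.78 ± 0.093. MAP1LC3B, which encodes the autophagosome protein LC3B, differed by 0.59 ± 0.064.

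**Figure D4:**
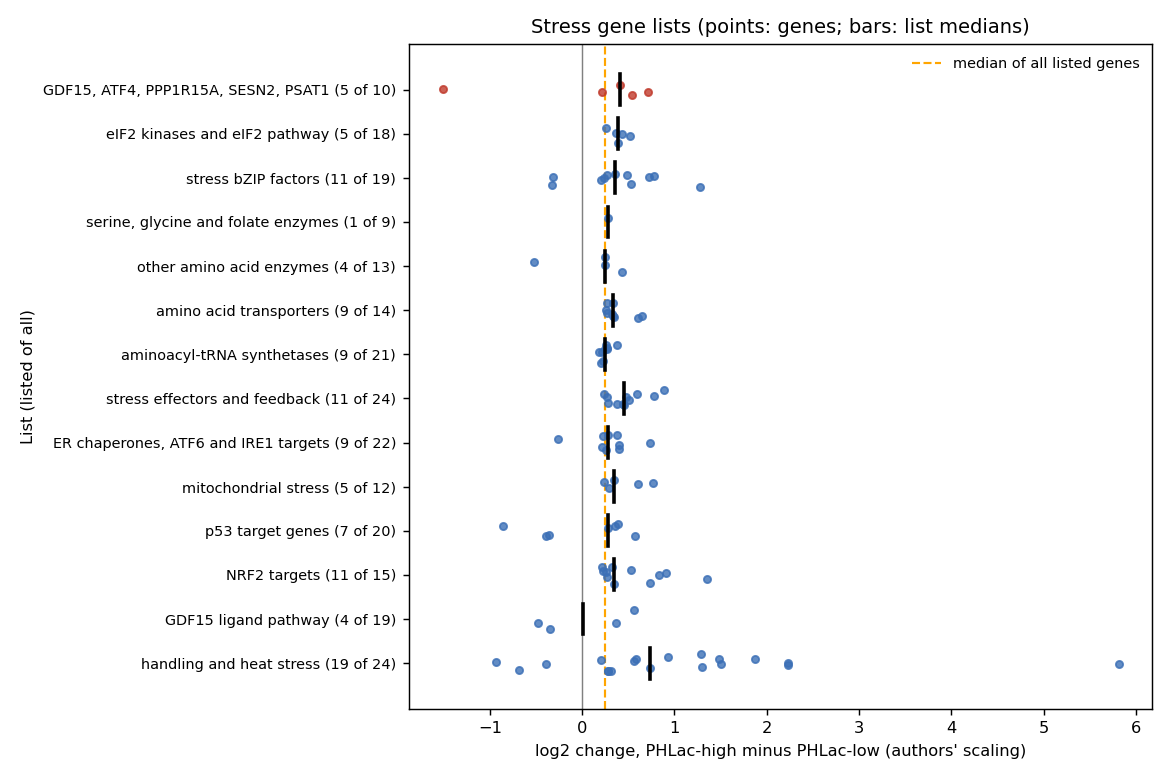
Log2 difference, PHLac-high minus PHLac-low (horizontal axis, authors' scaling), of each listed gene (points) in 14 groups of genes (rows, with the number listed of the number in the group), with bars for the group medians and a dashed line for the median of all listed genes at 0.25. GDF15 lies at -1.51, far to the left of the other stress genes, whose group medians lie between 0.25 and 0.45 for the 7 stress lists.

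For the other arms of the unfolded protein response, 8 of 9 listed genes of 22 were higher in PHLac-high (7 after upper-quartile scaling), with a median log2 difference of 0.29. Among all listed genes 58.8% were higher (54.1% after that scaling), with a median of 0.25. HERPUD1, of endoplasmic reticulum-associated degradation, differed by 0.74 ± 0.11 (SE, limma), MANF by 0.40 ± 0.073 and the co-chaperone gene DNAJB11 by 0.40 ± 0.072. Repeat 3 had the highest mean level for 7 of these 9 genes and for 30 of the 50 stress genes, beside 24.3% of all listed genes. The centred repeat means of MANF were -0.79, -0.32, 1.24 and -0.14, so repeat 3 stood out here as it did for SESN2 and PSAT1.

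Of 19 genes for receptors, convertases and relatives of GDF15, 4 were listed, 2 higher and 2 lower. RET, the co-receptor, differed by -0.47 ± 0.11 (SE, limma) and TGFB1 by -0.35 ± 0.069, while GDF11 differed by 0.37 ± 0.10. TGFB3 differed by 0.56 ± 0.22, but by 0.29 without repeat 3, and it was lower in PHLac-high in repeat 4 (-0.17). GFRAL was not listed.

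Inducible heat shock and immediate early genes, which handling can change, also differed between the fractions. Of 24 such genes 19 were listed, 16 higher and 3 lower in PHLac-high, beside 58.8% higher among all listed genes. After upper-quartile scaling 15 of the 19 were higher, beside 54.1% of all listed genes. Their summed normalised counts were 255007 to 274733 in PHLac-low and 389345 to 431287 in PHLac-high, a sum over genes that had to differ to be listed. The 3 lower genes, named after their values were seen, were the immediate early genes JUNB (-0.93 ± 0.11, SE, limma), DUSP1 (-0.69 ± 0.099) and ZFP36 (-0.39 ± 0.11), each lower in all 4 repeats. The largest differences were in HSPA6 (5.81 ± 0.54, SE, limma), HSPA1B (2.23 ± 0.18) and HSPA1A (2.23 ± 0.17), of which the HSPA1A and HSPA1B sequences are so alike that they can share reads. The part of these genes in the differences of GDF15 and the stress genes was not tested. Of 10 fibroblast, endothelial and immune markers 3 were listed: COL1A1, at mean normalised counts of 137 (PHLac-low) and 85.01 (PHLac-high), PTPRC, at 262 and 103, and CD68, at 1428 and 2189. Their part was not tested either.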

How the data were processed

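Libraries of selected messenger RNA, with dUTP in the second strand and read from both ends, were made from sorted MIA PaCa-2 cells, per the labels' protocols. STAR, SAMtools, Subread, DESeq2 and the build hg38 are named, without roles, per the submitters' processing notes. The strand setting of the counting is not given in the sources used here. The authors deposited 1 table of 3666 genes with, per library, a scaled read signal, a log2 fold change and an adjusted p-value. Divided by each column's step, 100% of values came out whole (to 0.01 read) in all 8 columns, so the deposited signal is a read count divided by a size factor (0.755 to 2.09). Every listed gene has an adjusted p-value of at most 0.05, so other genes were not analysed here.

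Differences were fitted with limma (3.58.1, R 4.3.3, trended variance) on log2(normalised count + 1) over all 3666 genes, with the repeat as a block. The series' design text gives the samples as paired, and deviations from the group means correlated between libraries of the same repeat (0.53 to 0.76 across genes, with a largest value of 0.27 between different repeats). Recovered reads were also fitted with edgeR 4.0.16 and DESeq2 1.42.0. The fits were tested on simulated data. Members, lists and motifs were chosen with earlier results of these data known. Named were all members, the 3 genes with the largest difference of each list (all where 5 or fewer were listed), and the 6 genes nearest to GDF15. Of these, 1 gene is not reported here. The 15 lists hold 247 genes, of which 108 were listed, and were matched by symbol, older symbol or Entrez identifier. Promoters came from RefSeq (GRCh38.p14), gene coordinates likewise, and exon lengths from GENCODE release 29. Protein sequences were not used here. Alternatives were a pseudocount of 0.1, upper-quartile scaling, genes at or above the median level, no block, each repeat left out, edgeR and DESeq2.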

Additional observations from a re-analysis of the deposited data

Results flagged for a closer look

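In 68 groups of 4 values (each member's counts in a fraction, and each named gene's differences in the 4 repeats), the distance from the most extreme value to its neighbour was set against the full range. Chance picks out about 1 group in 20, here 3.4, and 4 were picked out. The SESN2 count of the PHLac-low library of repeat 3 stood 0.933 of the range from the nearest other library. Among differences between fractions, CARS in repeat 2 (0.875), YARS in repeat 4 (0.912) and RET in repeat 1 (0.863) stood apart from the other repeats.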

How the results depend on the processing

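Upper-quartile scaling moved most values. It gave a log2 difference of 0.31 for ATF4 and -0.0067 for PSAT1, so that 2 of the 5 members were lower in PHLac-high in place of 1. List medians became 0.16 (eIF2), 0.13 (bZIP factors), 0.053 (serine, glycine and folate), 0.022 (other amino acid enzymes), 0.11 (transporters), 0.025 (tRNA synthetases), 0.22 (effectors), 0.061 (endoplasmic reticulum), 0.12 (mitochondrial stress), 0.061 (p53), 0.12 (NRF2), -0.21 (GDF15 ligand pathway) and 0.51 (handling). The scaling rests on genes selected for a difference. Among genes at or above the median level the median was 0.53 for bZIP factors, -0.35 for the ligand pathway and 0.55 for the 3 non-epithelial markers, of which CD68 alone was left. The ligand pathway median, 0.01 over 4 genes, ran from -0.041 to 0.069 with 1 repeat left out. With 1 repeat left out GDF15 ran from -1.59 to -1.39, and in each such fit 47 of the 50 stress genes were higher. Without the replicate block the differences are equal by construction, -1.51 for GDF15, and its standard error was 0.48 in place of 0.095. Under edgeR, DESeq2 and the smaller pseudocount, the 5 members and 53 other named genes moved by less than the spread between repeats. The intervals cover counting error only, total depth is unknown because the table holds part of each library, and all counts concern listed genes only.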

Other observations

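Of NRF2 targets, which protect against oxidative stress, all 11 listed genes of 15 were higher in PHLac-high, with a median log2 difference of 0.34. Under upper-quartile scaling 10 of them stayed higher. Among all listed genes 58.8% were higher, with a median of 0.25, and 54.1% under upper-quartile scaling. HMOX1, the inducible haem oxygenase, differed by 1.36 ± 0.16 (SE, limma), GCLC, of glutathione synthesis, by 0.91 ± 0.079 and SRXN1 by 0.84 ± 0.072. For HMOX1 the difference was 1.61, 1.78, 1.43 and 0.61 in repeats 1 to 4. Of 12 mitochondrial chaperone and protease genes 5 were listed and all were higher with both scalings, led by HSPE1 (0.76 ± 0.063) and HSPD1 (0.60 ± 0.051), with HSPA9 at 0.34 ± 0.050, YME1L1 at 0.29 ± 0.050 and AFG3L2 at 0.23 ± 0.066.

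GDF15 is also a known p53 target. Of 20 genes on a p53 list 7 were listed, 4 higher and 3 lower in PHLac-high with both scalings. That is near the 58.8% higher among all listed genes. TP53INP1 (-0.86 ± 0.20, SE, limma, means of 113 and 63.3 normalised counts) was lower in all 4 repeats, as were GDF15 and 39.8% of all listed genes. FDXR (-0.39 ± 0.065, means of 3746 and 2868) and TP53I3 (-0.36 ± 0.072, means of 2947 and 2266) were also lower in all 4 repeats. CDKN1A, the cell-cycle inhibitor p21, differed by 0.57 ± 0.11, TIGAR by 0.39 ± 0.063, AEN by 0.36 ± 0.078 and MDM2 by 0.29 ± 0.060.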
